A study of Mus musculus with 12 samples.

Results

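The hairpins of mir-297, mir-466, mir-467 and mir-669 are mouse microRNA (miRNA) precursors that came from simple sequence repeats and are found in rodents. Members were taken as every miRBase hairpin with 1 of these 4 numbers, followed by a letter, a hyphen or nothing, which gave 82 of the 1050 hairpins listed in the 12 libraries. Of these, 6 belong to mir-297, 29 to mir-466, 17 to mir-467 and 30 to mir-669. Reads with and without a genome match were summed per hairpin, and levels are given as CPM, counts per 1000000 miRNA reads of the library.

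The libraries hold small RNA of C57BL6/J mouse sperm and of TM4 cells, a mouse Sertoli cell line used as a model of the somatic cells that nurse germ cells. CD and HFD sperm, with 3 libraries each, came from the epididymis of males fed for 7 weeks from 4 weeks of age, with 16% of the energy from fat in the control diet (CD) and 69% in the high-fat diet (HFD) by the labels. The methods state a lower fat share for the HFD than the labels do, and the paper also differs from them in the age at the start of feeding. Each sperm library pools the sperm of 3 samples. The TM4 cells, with 2 libraries each, were non-treated (Ctrl), treated with 10 µM of the AMPK inhibitor Compound C for 12 h (CC), or overexpressed Ang, the gene of the ribonuclease angiogenin, from a Gateway plasmid (Ang OE). Cells with an empty plasmid are not among these groups, so the plasmid and Ang cannot be told apart, and small RNA libraries do not measure the Ang mRNA. Nothing in the labels says that the TM4 libraries of a group came from separate cultures, so p-values there measure the spread between these libraries, which may be technical.

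A miRNA is cut from a hairpin in a longer transcript, and its mature strand guides a silencing complex to messenger RNAs through its seed, bases 2 to 8. Repeat hairpins like these hold long stretches in which U and G, or A and C, alternate. Most of them lie in an intron of Sfmbt2, a Polycomb-group gene that is imprinted and known for its role in the placenta, and the miRNAs of this intron are known from placenta and embryonic stem cells. Many hairpins are copies of each other, so that 1 read fits several of them.

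In RefSeq on the mouse build GRCm38.p6, 81 of the 82 hairpins were placed, and mir-466a was not. Within Sfmbt2, at chr2:10370440-10595253, lie 71 of them, packed into 51.6 kb from the first hairpin at 10466663 to the end of the last at 10518279. In the GENCODE annotation of the newer build, all 72 hairpin genes of these numbers on chromosome 2 lie in the intron between exons 10 and 11 of Sfmbt2. The other 10 are scattered. Hairpins mir-466q, mir-466k and mir-669n lie on chromosome 3, mir-467g on 5, mir-297a-1 on 7, mir-467h on 9, mir-466j on 10, mir-467f on 11, and mir-466i and mir-466f-4 on 13. By the RefSeq gene spans, mir-466q lies inside Tnik, mir-669n inside Slc30a7, mir-467g inside Grk4, mir-467f inside Fxr2, mir-466i inside Cdk13 and mir-466k inside the long non-coding RNA gene Gm31419, and no gene other than the hairpin itself was annotated at the remaining 4.

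Mature sequences of 8 members, all outside Sfmbt2, were at hand in RefSeq (GRCm38.p6). They are shown to let the alternating stretches and the differences between seeds be seen, with the seed in capitals.
miR-466q, chr3:28419988-28420007, plus strand: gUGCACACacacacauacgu
miR-466k, chr3:85467396-85467418, plus strand: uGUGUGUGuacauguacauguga
miR-669n, chr3:115979905-115979924, plus strand: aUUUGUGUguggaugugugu
miR-467g, chr5:34732872-34732892, minus strand: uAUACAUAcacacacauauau
miR-467h, chr9:115381898-115381919, plus strand: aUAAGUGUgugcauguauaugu
miR-466j, chr10:60960802-60960824, plus strand: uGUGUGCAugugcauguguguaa
miR-467f, chr11:69635419-69635439, minus strand: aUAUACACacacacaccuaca
miR-466i-3p, chr13:17747552-17747573, plus strand: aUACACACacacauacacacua

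The 8 seeds differ from each other, also between members of the same number, so a shared number does not mean a shared seed here. A run of at least 8 alternating U and G, or A and C, was present in 6 of the 8, and the longest such run, in miR-466q and miR-467f, had 12 bases. Of the 1679 mature sequences in the same RefSeq table, 13 or 0.774% held such a run. These 8 hairpins were scarce in every library. The highest mean CPM over the sperm libraries was 1.34, for mir-466i, and over the TM4 libraries 1.09, also for mir-466i.

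How many of the 82 can be told apart was read from the counts. Hairpins were taken as 1 set where their reads agreed within 2% or 1 read in every library and averaged at least 10 reads. This left 53 sets, of which 8 held several copies and 37 hairpins. The largest were 11 copies of mir-669a, 10 copies of mir-467a, 5 of mir-466b and 3 of mir-466c, with pairs mir-466b-8 and mir-466e, mir-297a-3 and mir-297a-4, mir-669m-1 and mir-669m-2, and mir-669p-1 and mir-669p-2. The members of such a set are not separate measurements. Reads were found in all 12 libraries for 71 members, 17 members stayed under 10 reads in every sperm library, and 8 did so in every TM4 library. No read of any member lacked a genome match.

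miRNA reads numbered 11412945 to 14822686 per sperm library and 27651384 to 35704399 per TM4 library, so values of sperm rest on fewer reads. The sperm libraries held 8946 to 14327 CPM of 5 epithelial miRNAs (the mir-200 family and mir-141), against 1.28 to 2.38 in TM4 cells. They also held 13696 to 26658 CPM of 3 red blood cell miRNAs, against 885 to 1433, and 580 to 1422 CPM of 3 white blood cell miRNAs, against 2.23 to 4.30. In TM4 cells nearly all the red blood cell value was mir-486a, with mir-451a and mir-144 each at most 0.95 CPM. In sperm the white blood cell miRNAs were mostly mir-142a, while mir-150 and mir-223 overlapped between the diets. Of the 3, 0 were called between HFD and CD. Their sum lay at 580 to 676 CPM in CD and 780 to 1422 CPM in HFD sperm, with the highest value in HFD replicate 1. That library also stood apart over all hairpins, where the chi-square of its counts against the other HFD libraries, divided by the degrees of freedom, was 993 and 1241, while no other pair of sperm libraries of 1 diet exceeded 272. The 6 germ cell miRNAs listed, such as mir-34c, summed to 2934 to 8359 CPM, against 934 to 2045 in TM4 cells, where mir-34c alone held 853 to 1956. The part of these other cells in the levels of the repeat hairpins was not tested.

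By mean CPM over 707 miRNA numbers with reads in CD sperm, mir-467 ranked 87 and mir-669 ranked 88, while mir-466 ranked 127 and mir-297 ranked 202. In Ctrl cells, with 607 numbers, mir-669 ranked 79, mir-467 ranked 80, mir-466 ranked 96 and mir-297 ranked 151. The order mir-297 below mir-466 below the other two held in every library. Between mir-467 and mir-669 the order varied among the sperm libraries, and mir-669 was the higher in all but 1 of the TM4 libraries, CC replicate 2.

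**Figure D1:**
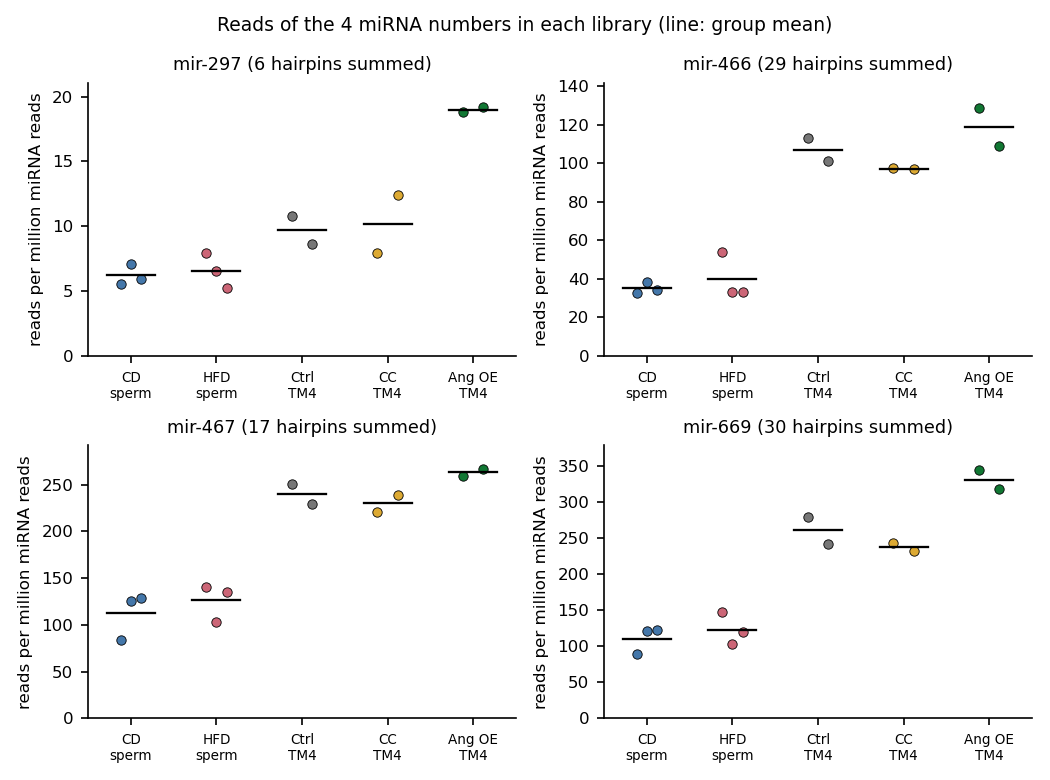
Each panel sums the reads of all hairpins of 1 number, in CPM on the vertical axis, for the 12 libraries by group on the horizontal axis. Points are libraries and lines are group means. The Ang OE libraries lie at 18.8 and 19.2 for mir-297, above every other library, and the sperm libraries lie below all TM4 libraries for every number.

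The question for sperm was whether the diet of the father moved these miRNAs, and no change was detected. CD libraries held 32.7, 38.6 and 34.2 CPM of mir-466 and HFD libraries 54.0, 33.3 and 33.0 CPM. A single HFD library, replicate 1, thus stood above the rest, while the other HFD libraries lay inside the range of the CD. Among the sperm libraries, HFD replicate 1 was also the highest in white and in red blood cell miRNAs. It was the lowest in epithelial and in smooth muscle miRNAs. For mir-467 the CD libraries held 83.8, 126 and 128 CPM and the HFD libraries 140.6, 103 and 135 CPM. For mir-669 the values were 88.8, 121 and 122 CPM on the CD and 147, 103 and 120 CPM on the HFD. In both, CD replicate 1 was the lowest and HFD replicate 1 the highest of the 6 libraries, and the groups overlapped. The small mir-297 lay at 5.58, 7.12 and 5.94 CPM on the CD and at 7.96, 6.59 and 5.23 CPM on the HFD.

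By edgeR's quasi-likelihood test with TMM normalization, the sums of the 4 numbers differed between HFD and CD by 0.08 ± 0.24 (log2 fold change ± SE) for mir-297, 0.17 ± 0.21 for mir-466, 0.15 ± 0.20 for mir-467 and 0.14 ± 0.18 for mir-669, with Benjamini-Hochberg adjusted p-values between 0.928 and 0.945. Each SE exceeded its difference. Without HFD replicate 1 the value of mir-466 was −0.029. Among the single hairpins, 61 of the 82 passed the filter of at least 10 reads in at least 3 libraries. None was called at an adjusted p under 0.05, and none had an unadjusted p under 0.05, where 31 of all hairpins tested had one. Over all hairpins 0 were called, which is 0%, and over all 299 numbers likewise 0%. With DESeq2, 8 of all hairpins tested were called, none of them a member. The median log2 fold change of the tested members was 0.09, beside −0.01 over all hairpins, and the values ran from −0.26 to 0.55. Without HFD replicate 1 the median was −0.018, with 28 of the 61 members above 0 against 42 with all libraries. It was 0.29 with the clean reads without rRNA (60 above 0), 0.21 with the miRNA reads, the scale of the CPM (59 above 0), 0.11 with DESeq2 (55 above 0) and 0.19 without CD replicate 3 (60 above 0), so the number of members above 0 follows the scaling and single libraries.

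In TM4 cells treated with CC, an inhibitor of the energy sensor AMPK, the repeat hairpins also showed no called change. The Ctrl libraries held 113 and 101 CPM of mir-466 and the CC libraries 97.6 and 96.9 CPM, so that both CC libraries lay just below both Ctrl libraries. For mir-467, Ctrl lay at 250 and 229 CPM and CC at 221 and 239 CPM. For mir-669, Ctrl lay at 280 and 243 CPM and CC at 243 and 232 CPM. The mir-297 sum was 10.8 and 8.67 CPM in Ctrl and 7.97 and 12.4 CPM in CC, with the CC libraries on either side of the Ctrl. The log2 fold changes of the sums, in an edgeR model of all 6 TM4 libraries, were 0.08 ± 0.20 for mir-297, −0.13 ± 0.13 for mir-466, −0.05 ± 0.11 for mir-467 and −0.13 ± 0.11 for mir-669 (adjusted p between 0.595 and 0.894). Of all numbers tested, 4.58% were called.

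Of the members, 73 passed the filter of at least 10 reads in at least 2 libraries, and 0 of the 73 were called, where 22 of all 533 hairpins or 4.13% were. An unadjusted p under 0.05 was reached by 5 of the 73, all lower in CC, and by 94 of all 533. They were mir-466n, mir-466h, mir-466o, mir-669l and mir-669a-3, which are named because of that count. The lowest p was that of mir-466n, at 3.44 and 2.77 CPM in Ctrl and 1.66 and 2.01 CPM in CC, a log2 fold change of −0.75 ± 0.22 with an adjusted p of 0.0654. It was called lower in CC when libraries were scaled by their clean reads without rRNA, with the replicate number as a block (−0.75, edgeR adjusted p = 0.0107) and without Ctrl replicate 2, where it was the only member called.

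Overexpression of Ang gave another picture. In Ang OE cells all 4 sums were higher than in Ctrl, and mir-297 rose the most. It lay at 10.8 and 8.67 CPM in Ctrl and at 18.8 and 19.2 CPM in Ang OE, 9.72 ± 1.49 against 19.0 ± 0.23 (mean ± SD, n = 2 each), with no overlap. Its log2 fold change was 1.35 ± 0.20 (edgeR quasi-likelihood test, adjusted p = 0.000138). The mir-669 sum, 280 and 243 CPM in Ctrl, stood at 345 and 318 CPM in Ang OE, a log2 fold change of 0.73 ± 0.11 (edgeR adjusted p = 0.000171). Both kept their call under every alternative that was run, but not their size. With the clean reads the values were 1.1 for mir-297 and 0.48 for mir-669, and with the miRNA reads 0.97 and 0.34.

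The other two sums moved less. For mir-466 the Ang OE libraries held 129 and 109 CPM, and the lower of them lay within the Ctrl values of 113 and 101 CPM. Its log2 fold change was 0.53 ± 0.13 (edgeR adjusted p = 0.00496). For mir-467 they held 260 and 266 CPM against 250 and 229 CPM, a log2 fold change of 0.52 ± 0.11 (edgeR adjusted p = 0.00257). The calls of mir-466 and mir-467 depended on how the libraries were scaled. With the miRNA reads as library size the log2 fold changes were 0.15 for mir-466 and 0.13 for mir-467, and with the clean reads without rRNA 0.29 and 0.27, and in neither setting was either called. The mir-466 sum also lost its call without Ctrl replicate 2, at 0.47. Of all 371 numbers, 18.9% were called higher and 9.7% lower. TMM placed the median over all hairpins at 0.06, the clean reads at −0.08 and the miRNA reads at −0.21, so the choice shifts every value. Whether the numbers differ from each other in their response was not tested.

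Among the single hairpins, 36 of the 73 tested were higher in Ang OE and 0 lower, beside 24.2% of all 533 hairpins called higher and 14.1% called lower. Counted as sets of like copies, 23 of 44 were higher. The median log2 fold change of the members was 0.48, beside 0.06 over all hairpins. With the clean reads 22 members were higher, beside 18.4% of all hairpins in that setting, with the miRNA reads 20, beside 15.2%, and with DESeq2 34, beside 21.6%. Without single libraries it was 20 to 33, beside 17.2% to 21.2%, of which 23 without Ctrl replicate 2 and 20 without either Ang OE library. No member was lower in any of these settings. By number, 6 of 6 tested hairpins of mir-297 were higher, 24 of 26 of mir-669, 4 of 27 of mir-466 and 2 of 14 of mir-467. For mir-669 these include the 11 like copies of mir-669a, which count as 1 set, with a log2 fold change of 0.48 ± 0.14 (edgeR adjusted p = 0.0136). That set lost its call with the clean reads (0.34), the miRNA reads (0.21), without Ctrl replicate 2 (0.38) and without Ang OE replicate 1 (0.38) or replicate 2 (0.48, edgeR adjusted p = 0.0522). The hairpins of mir-669 called higher then numbered 12 in each of the first 3 settings and 11 without either Ang OE library. The copies of mir-467a (0.34 ± 0.15, edgeR adjusted p = 0.0802) and of mir-466c (0.40 ± 0.16, edgeR adjusted p = 0.0566) did not pass.

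The hairpins with the largest changes among those called, with groups apart and at least 100 reads on average, were 6 of mir-669, 1 of mir-467 and 1 of mir-466. The most abundant of them was mir-467e, at 13.7 and 16.1 CPM in Ctrl, 13.7 and 14.9 CPM in CC and 31.5 and 29.2 CPM in Ang OE, so that only the Ang OE libraries stood apart in TM4 cells. Its log2 fold change was 1.29 ± 0.14 (edgeR adjusted p = 2.59e-06). Its neighbour in name mir-467d, at 28.4 and 25.6 CPM in Ctrl and 24.7 and 27.8 CPM in Ang OE, overlapped between the groups (0.24 ± 0.14, edgeR adjusted p = 0.20). Accordingly mir-467e took 5.48% and 7.05% of the reads of mir-467 in Ctrl, 6.21% and 6.22% in CC, and 12.2% and 10.9% in Ang OE, a share that no scaling of the libraries can move.

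Hairpin mir-669e lay at 2.49 and 3.08 CPM in Ctrl and 6.49 and 6.14 CPM in Ang OE, a log2 fold change of 1.44 ± 0.19. Hairpin mir-669b lay at 4.64 and 5.28 CPM in Ctrl and 10.6 and 10.3 CPM in Ang OE (1.35 ± 0.17), and mir-669m-1, whose reads lie within the set tolerance of those of mir-669m-2, lay at 4.83 and 5.36 CPM and at 10.4 and 9.77 CPM (1.26 ± 0.17). The levels of mir-669b and mir-669m-1 are close in every library, and whether they share reads cannot be told from the counts. In all 3 the Ang OE libraries stood above every other library of the series. For mir-466n, which had the lowest p in CC, Ang OE went the other way, from 3.44 and 2.77 CPM to 6.79 and 5.49 CPM (1.26 ± 0.19). The remaining hairpins were mir-669d (0.99 ± 0.20), mir-669d-2 (0.98 ± 0.20) and mir-669l (0.96 ± 0.16), of which the first pair have nearly the same reads. The edgeR adjusted p-values of these 7 ran from 1.10e-05 to 0.000816, and all 8 hairpins remained called under every alternative.

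The larger changes of scarce hairpins rest on few reads. For mir-297b, which had the largest change within mir-297, 42.3 and 40.3 reads in Ctrl stood against 115 and 124 in Ang OE (1.76 ± 0.24, edgeR adjusted p = 2.1e-05). For mir-669g, called higher in Ang OE, the libraries held 0 and 4 reads in Ctrl, 0 and 4 in CC, 14 and 19 in Ang OE and 0 in every sperm library, so that its fitted change depends on the added prior count. It passed the filter through the Ang OE libraries alone, where it is high, and so had to differ. Without it 35 of 72 members were called higher, and 23 of 25 of mir-669. Both are named after their values were seen.

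**Figure D2:**
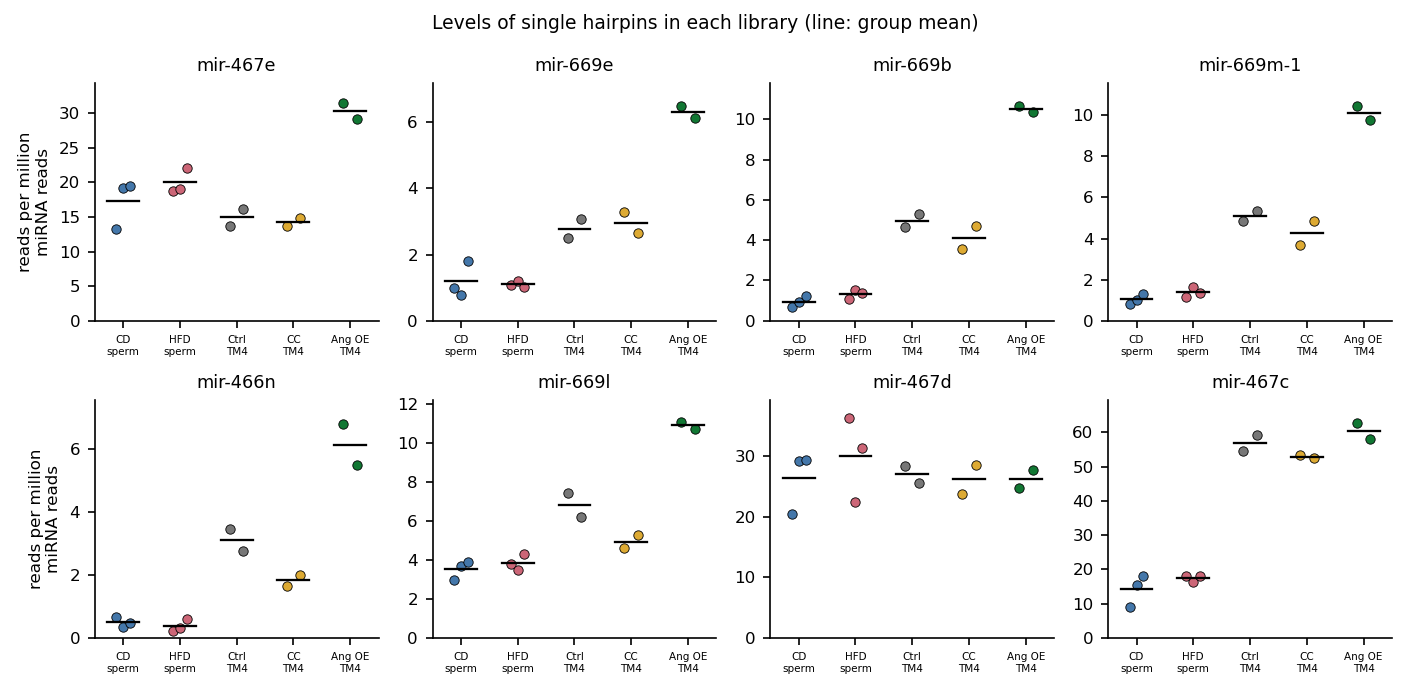
CPM (vertical axis) of 8 hairpins in each of the 12 libraries by group (horizontal axis). Points are libraries, lines are group means, and mir-669m-1 stands also for its like copy mir-669m-2. For mir-467e the Ang OE libraries lie at 31.5 and 29.2 and the Ctrl libraries at 13.7 and 16.1, while for mir-467d the TM4 groups overlap.

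To describe the changes along the intron, the cluster was split, after its values were seen, by the run of mir-467a copies into 16 hairpins before it, 34 within it and 21 after it. Of those tested, 10 of 15 before the run were higher in Ang OE, 12 of 33 within it and 13 of 19 after it, or in sets of like copies 10 of 15, 3 of 9 and 10 of 16, beside 24.2% of all 533 hairpins. The stretches share reads, since the set of mir-669a has 9 copies within the run and 2 after it and that of mir-466b 1 before and 4 within, and each such set is counted in both stretches. Of the 12 within the run 9 are copies of mir-669a. That set lost its call with the clean reads and with the miRNA reads. With the clean reads 3 of 33 were higher within the run, 7 of 15 before it and 11 of 19 after it, beside 18.4% of all hairpins. With the miRNA reads these were 3 of 33, 7 of 15 and 9 of 19, beside 15.2%. With ComBat-seq 25 of 33 were higher within the run, 11 of 15 before it and 15 of 19 after it, beside 30.0% of all hairpins. Within the run mir-669g is counted, and without it 11 of 32 hairpins and 2 of 8 sets were higher. Sets were formed for the members alone, so the share of all hairpins is not a like measure for the sets. The median log2 fold changes were 0.76, 0.34 and 0.72. Outside Sfmbt2 or without a place, 1 of 6 was higher, which was mir-297a-1 on chromosome 7 at 1.39 and 1.09 CPM in Ctrl and 2.38 and 2.64 CPM in Ang OE (1.30 ± 0.29), and the median was 0.56. The middle of the cluster is where like copies alternate, so a read there is shared among up to 11 hairpins. No test was made of the difference between the stretches. In CC the medians of the stretches were −0.12, −0.09 and −0.09 and in HFD sperm 0.19, 0.07 and 0.09, with 0 called in each. CC and Ang OE were compared with the same Ctrl libraries.

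**Figure D3:**
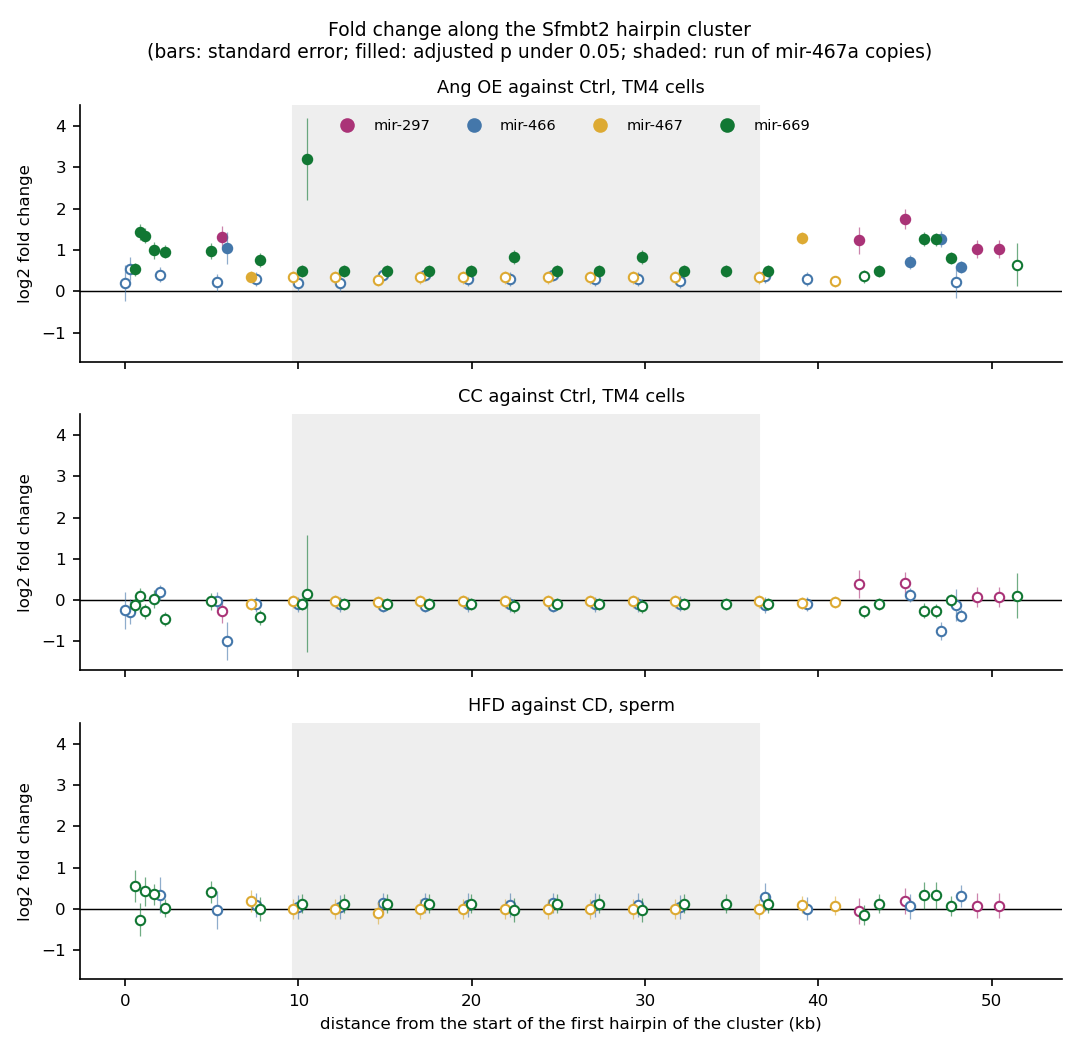
Log2 fold change of each tested hairpin in the Sfmbt2 intron against its distance in kb from the start of the first hairpin, for Ang OE against Ctrl, CC against Ctrl and HFD against CD. Bars are standard errors, colours are the 4 numbers, filled points have an adjusted p under 0.05, and the shaded stretch holds the mir-467a copies. In Ang OE 13 of the 19 hairpins beyond the shaded stretch are filled, in the other comparisons none is, and the point at 3.20 is mir-669g, with few reads.

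Other lists give a frame for these changes. The mir-290 to mir-295 stem cell cluster, also known from embryonic stem cells, had 8 hairpins listed. It lay at 1.42 to 3.60 CPM in sperm and 0.11 to 0.72 CPM in TM4 cells, and 0 of its hairpins reached the filter in TM4 cells. Other miRNAs with 4 repeats of UG or AC in the mature strand were mir-1187, mir-3082, mir-32, mir-574 and mir-672. The repeat lies in only 1 arm of a hairpin, and the counts do not separate the arms. Of the 4 hairpins tested in TM4 cells, 2 were higher in Ang OE, mir-32 (1.13 ± 0.19) and mir-574 (0.40 ± 0.12), and mir-574 was higher in CC (0.51 ± 0.12). In CPM, mir-574 overlapped between Ctrl (252 and 310) and Ang OE (327 and 288), and lay at 401 and 395 in CC. In Ang OE cells 4 of 4 tested germ cell miRNAs were higher, among them mir-34c (1.26 ± 0.10). Of these, mir-871 was scarce, at 0.18 and 0.20 CPM in Ctrl and 0.40 and 0.59 CPM in Ang OE (edgeR adjusted p = 0.0452). The untested mir-741 and mir-880 reached at most 0.15 CPM in a TM4 library. Both smooth muscle miRNAs were also higher, mir-143 (1.38 ± 0.16) and mir-145a (0.40 ± 0.11). In CPM, mir-145a overlapped between Ctrl (1213 and 1171) and Ang OE (1404 and 1196). The smooth muscle pair summed to 94556 to 129039 CPM in Ang OE against 49714 to 55567 CPM in Ctrl. None of the 2 tested epithelial and 2 tested white blood cell miRNAs was called, and of 2 tested red blood cell miRNAs mir-486a was lower (−0.38 ± 0.10). The part of these shifts in the changes of the repeat hairpins was not tested.

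Sperm and TM4 cells differ in tissue, depth and other cells at once, and these cannot be told apart. By CPM the CD libraries held 211 to 293.1 CPM of the 82 hairpins summed and the Ctrl libraries 581 to 654 CPM. With TMM normalization, however, the sums differed by 0.78 ± 0.26 for mir-297 (higher in CD sperm, edgeR adjusted p = 0.0257), −0.18 ± 0.17 for mir-466, 0.34 ± 0.21 for mir-467 and 0.19 ± 0.19 for mir-669, the last 3 not called. The call of mir-297 was lost without a filter (0.31), with a filter of 100 reads (0.18), with the replicate block (0.77, edgeR adjusted p = 0.0705), without CD replicate 3 (0.77, edgeR adjusted p = 0.0562) and without Ctrl replicate 1 (0.20) or 2 (−0.088). With the miRNA reads as library size the same 4 were −0.65, −1.61, −1.09 and −1.24. TMM set the median of all hairpins at −0.13 and the miRNA reads at −1.47, so the direction for these numbers follows the scaling and is not settled here. By TMM 10 of 72 tested members were higher in CD sperm and 12 lower, beside 40.7% higher and 36.4% lower of all 590 hairpins. Of the tested members 6 passed the filter only through the Ctrl libraries, where they are high, and 3 of them were called, mir-466f-4, mir-466m and mir-466n, which so had to differ. Without the 6, 10 of 66 were higher and 9 lower. By the miRNA reads 1 member was higher and 59 lower, beside 32.9% higher and 58.0% lower of all hairpins. Of the 414 numbers, 43.2% were higher and 36.7% lower by TMM.

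The sperm and TM4 libraries did differ in which hairpins made up each number, and shares within a number need no scaling between libraries. In sperm of both diets mir-669c took 24.9% to 33.8% of the reads of mir-669, with a median of 31.7%, and in TM4 cells 9.50% to 12.8%, with a median of 11.2%. The 11 like copies of mir-669a took 40.5% to 46.0% in sperm and 54.1% to 62.0% in TM4 cells. In mir-467, mir-467d took 21.8% to 25.7% in sperm against 9.52% to 11.9% in TM4 cells, and mir-467c took 10.9% to 15.7% against 21.8% to 25.9%. In mir-466, mir-466d took 11.6% to 15.3% against 5.32% to 6.86%. For each of these the 6 sperm libraries lay wholly on one side of the 6 TM4 libraries. They were picked after the shares were seen and are given with no test. For mir-467e, 13.3% to 18.5% of mir-467 in sperm, the Ang OE libraries came nearest among the TM4 libraries.

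Reads are divided among like copies, so the most abundant were sets of copies. The 10 copies of mir-467a summed to a mean of 52.7 CPM in sperm and 131.8 CPM in TM4 cells, and the 11 of mir-669a to 51.0 and 161 CPM, above every single hairpin. Of the hairpins as listed, the 5 most abundant were the same in both, in another order. In sperm they were mir-669c (mean 35.7 CPM), mir-467d (28.1), mir-467e (18.6), mir-467c (15.8) and mir-669o (10.3), and in TM4 cells mir-467c (56.7), mir-669c (30.5), mir-467d (26.4), mir-467e (19.9) and mir-669o (16.9). The TM4 order is that of the means over all 6 libraries. It held in the means of Ctrl, whereas in CC mir-467d (26.1) and mir-669c (26.0) lay level and mir-669o (14.6) next to mir-467e (14.3), and in Ang OE mir-467e (30.4) lay above mir-467d (26.2). Thus mir-467c lay at 9.16 to 18.2 CPM in the sperm libraries and 52.4 to 62.8 CPM in TM4 cells, whereas mir-669c lay at 29.2 to 46.7 CPM and 23.2 to 37.2 CPM, where the tissues overlap. Of the named hairpins, mir-669f was called lower in CD sperm on every scale that was run. It lay at 1.15, 2.02 and 1.28 CPM in CD sperm against 9.49 and 7.36 CPM in Ctrl (−1.20 ± 0.27, edgeR adjusted p = 0.00357). The size followed the scaling, with −2.52 by the miRNA reads, −1.60 without CD replicate 2, and −1.90 and −2.22 without Ctrl replicate 1 and 2. The values of mir-467c (−0.67 ± 0.27, edgeR adjusted p = 0.045) and of the 3 copies of mir-466c (−0.62 ± 0.23, edgeR adjusted p = 0.0378) stayed below 0 under every alternative but lost the call in some. Without Ctrl replicate 1 and 2 they were −1.62 and −1.47 for mir-467c and −1.44 and −1.54 for mir-466c, and without CD replicate 1 neither was called (−0.63 and −0.75). For mir-669o TMM gave 0.73 ± 0.24, higher in CD sperm, while its CPM were lower, 7.42 to 11.5 against 15.3 and 14.1.

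**Figure D4:**
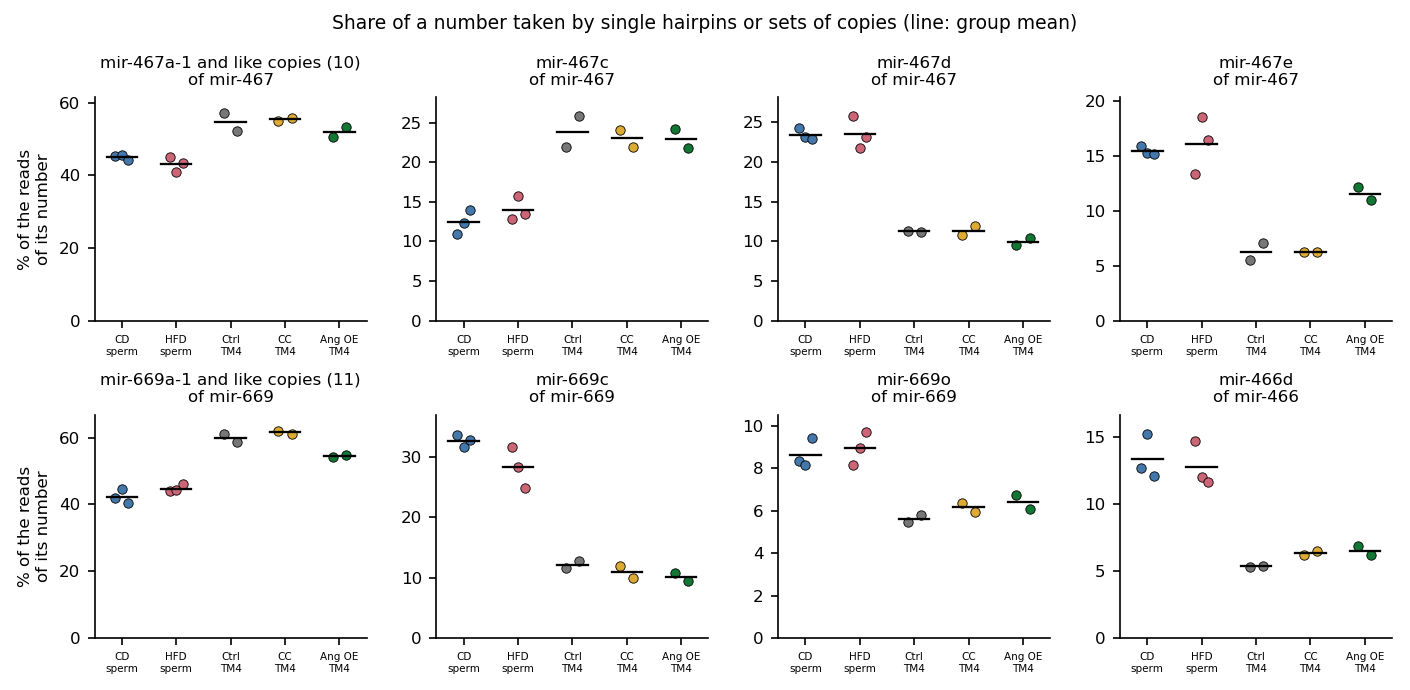
Percentage of the reads of a number (vertical axis) taken by 8 single hairpins or sets of like copies, in each of the 12 libraries by group (horizontal axis). Points are libraries and lines are group means. For mir-669c the sperm libraries lie between 24.9% and 33.8% and the TM4 libraries between 9.50% and 12.8%, and for mir-467e the Ang OE libraries lie above the other TM4 libraries.

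By position, 41.7% to 45.1% of the reads of all 82 hairpins in sperm came from those after the run of mir-467a copies, against 25.7% to 29.9% in TM4 cells. Hairpins within the run gave 40.6% to 43.1% in sperm and 49.2% to 55.3% in TM4 cells, those before it 11.9% to 14.1% and 17.5% to 19.5%, and those outside Sfmbt2 or without a place 1.37% to 2.04% and 1.27% to 1.48%. Hairpins of the intron were thus credited with nearly all reads of these numbers in every library. A hairpin on another chromosome that was listed in TM4 cells and almost lacking in sperm was mir-466f-4, with 12.5 to 33.5 reads in the TM4 libraries and at most 0.58 reads in the sperm libraries.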

How the data were processed

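By the methods, adapters and low-quality ends were removed with Trimmomatic 0.40 after a FastQC 0.12.0 check (both also in the submitters' processing notes), and SPORTS1.1 annotated the reads with a mismatch allowed, trying rRNA first, then tRNA, then miRBase and later the remaining small RNA databases. The submitters' notes give the build mm10. The deposited files hold estimated counts per class and hairpin and library, not normalized, in which a read that fits several hairpins is divided among them. These values were rounded to whole numbers for the tests. Deposited miRNA reads numbered 11412945 to 35704399 per library.

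Hairpins, and sums per miRNA number, were tested with edgeR 4.0.16 (R 4.3.3) by the quasi-likelihood test with TMM normalization over all miRNAs, a filter of at least 10 reads in at least 3 sperm or 2 TM4 libraries (2 for sperm against TM4 cells), Benjamini-Hochberg adjustment over all features and a threshold of 0.05. The TM4 groups shared a model of 6 libraries. The methods name DESeq2 for miRNAs, with ComBat-seq for the cells, and both were run as alternatives (DESeq2 1.42.0, sva 3.50.0), the latter with the replicate number as batch, since the study's batches are not given in the sources used here, as were 2 other library sizes, other filters, a replicate block, the 2 TM4 groups alone and each library left out. Counting copies as sets was added after seeing the data. The scripts were tested on simulated data.

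Named were the 4 sums, up to 8 called hairpins per comparison with groups apart in CPM, at least 100 reads on average and the largest change, and the 5 most abundant hairpins of sperm and of TM4 cells. The members and lists were chosen with earlier results of these data known. Positions and mature sequences came from RefSeq (GRCm38.p6), the intron from GENCODE vM39 (GRCm39, without coordinates), and figures from matplotlib 3.10.9.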

Additional observations from a re-analysis of the deposited data

How the results depend on the processing

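In sperm, 0 members and 0 of the 4 sums were called between the diets under every alternative, and of the sums only mir-466 turned, without HFD replicate 1 (−0.029, and up to 0.28 without another library), where the members' median also turned, from 0.09 to −0.018 (28 above and 33 below 0). That median was 0.29 with the clean reads (60 above, 1 below) and 0.21 with the miRNA reads (59 above, 2 below). For CC the count of called members was 1 with the clean reads without rRNA, 1 with the replicate block and 0 to 1 without single libraries, and the mir-297 sum turned to −0.05 without Ctrl replicate 2 and −0.28 without CC replicate 2, against 0.34 without CC replicate 1. For Ang OE the count of 36, beside 24.2% of all hairpins higher, was 22 with the clean reads (beside 18.4%) and 20 with the miRNA reads (beside 15.2%). With ComBat-seq on the replicate number it was 53, beside 30.0%, and it was 23 when like copies were counted as sets. The called sums fell from 4 to 2 with the clean reads and with the miRNA reads, and numbered 3 to 4 without single libraries. The 8 named hairpins kept their call throughout.

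CD sperm against Ctrl cells was the least stable, with 22 called members in all, or 19 without those that passed the filter only through Ctrl. Of these 10 were higher and 12 lower. The count was 62 with the clean reads (0 higher, 62 lower, beside 31.7% and 60.0% of all hairpins), 60 with the miRNA reads (1 and 59, beside 32.9% and 58.0%), 58 without a filter (7 and 51, beside 28.1% and 29.4%), 14 with the filter of 100 reads (7 and 7), 14 with the replicate block (8 and 6) and 16 to 48 without single libraries. Without CD replicate 1, 9 were higher and 7 lower (beside 38.5% and 34.3%), without replicate 2, 7 and 33 (beside 38.2% and 43.1%), and without replicate 3, 8 and 11 (beside 38.4% and 33.5%). Without Ctrl replicate 1 or 2, only 1 Ctrl library is left. The median log2 fold change of the members was then −1.17 and −1.39, beside 0.07 and 0.04 over all hairpins, against −0.42 with all libraries. Called sums numbered 4 with the clean reads, 3 with the miRNA reads, 0 with the replicate block and 0 to 2 without single libraries, beside 1. That 1 was mir-297, higher, whereas without a filter, with the filter of 100 reads and without either Ctrl library it was mir-466, lower (−0.64, −0.77, −0.84 and −0.98). The directions that turned were those of mir-297 (−0.88 with the clean reads, −0.65 with the miRNA reads, −0.088 without Ctrl replicate 2), mir-467 (−1.33, −1.09, −0.13 without a filter, −0.25 with the filter of 100 reads, −0.33 and −0.44 without Ctrl replicate 1 and 2), mir-669 (−1.48, −1.24, −0.27, −0.40, −0.44 and −0.62 in the same order) and mir-669o (−0.85 with the clean reads, −0.61 with the miRNA reads, −0.11 and −0.19 without Ctrl replicate 1 and 2). Without single libraries the highest values of the same 4 were 0.84, 0.50, 0.32 and 0.69. The scale factors follow which libraries and features enter, and beyond that the cause was not tested.

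Same-numbered libraries did not deviate together (correlations of −0.33, −0.24 and 0.04 for the diets, 0.06 for CC, −0.08 for Ang OE). Diet pairs of unlike number ran from −0.33 to 0.38, the latter for HFD replicate 1 with CD replicate 2. With 2 libraries in each TM4 group, the correlations of like and unlike numbers mirror each other. A shared batch of the TM4 libraries therefore cannot be judged from them. With the replicate block, 0 members were called for HFD. For Ang OE 40 members were higher in that setting, beside 25.1% of all hairpins, and 4 sums were called. Groups of 2 or 3 libraries limit all tests, and scarce hairpins were tested only in the run without a filter.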
